A study of Arabidopsis thaliana with 70 samples.

Results

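The WRKY transcription factor family of Arabidopsis thaliana was followed across 14 groups of RNA libraries. The members followed are 57 genes of 33597 in the deposited table, taken from a list of the family's gene identifiers. All 57 identifiers matched a WRKY symbol in the RefSeq gene table. The list does not hold every number up to WRKY75, so counts, subgroup sizes and shares below are those of the listed members. By the usual division on domain structure the family here held 10 members of group I, 3 of subgroup IIa, 8 of IIb, 14 of IIc, 6 of IId, 7 of IIe and 9 of group III. WRKY proteins are plant transcription factors that bind W-box elements in the promoters of defence genes, and many of their own genes carry W-boxes and respond to one another. In the leaf immune response they act downstream of pattern receptors and MAP kinase cascades, some as activators of salicylic acid and camalexin output and others as repressors that limit it. Group I proteins carry a pair of WRKY domains, and the subgroup IId proteins bind calmodulin.

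The study compared wild type plants (WT) with rdd, a mutant that lacks the DNA demethylases ROS1, DML2 and DML3, before and after flg22, a peptide from bacterial flagellin that the receptor FLS2 perceives. Plate-grown seedlings 10 days old were given 100 nM flg22 and taken at 0, 1 and 3 h, with 3 libraries per genotype and time. No untreated seedlings were sampled at 1 or 3 h, so time in the assay and flg22 cannot be told apart in these comparisons. Leaves of soil-grown plants 4 weeks old were inoculated by hand with water or 100 nM flg22 and taken at 24 h, with 3 libraries per genotype and treatment. In a priming experiment leaves of the same age received water or 100 nM flg22, and 24 h later all of them received Pst DC3000 hrcC, a bacterium that cannot inject effector proteins, for 1 h. The priming groups have 2 libraries each here. The 18 seedling, 12 leaf and 8 priming libraries were tested as separate sets, and levels are set side by side across sets without a test. The series text calls the repeats independent, and nothing says that they came from separate plants, so p-values measure the spread between these libraries.

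Values are read as FPKM, a fragment count scaled to transcript length and library total, which allows levels of different genes to be compared. The deposited files give no counts, so the sequencing depth behind a value is unknown. Differences are on the log2(FPKM + 1) scale, which understates changes of genes at low levels. A member was called higher or lower where limma's adjusted p over all genes tested was under 0.05. The second rdd library at 3 h stood apart from the other seedling libraries. Genes above 0 numbered 18555 in it, and organelle genes took 2.85% of its total, where the remaining seedling libraries gave 0.223% to 0.809%. Organelle genes took 0.0734% to 0.0979% of the total in the third library of each of the 4 leaf groups and 3.03% to 5.54% in the first and second. In leaves the same replicate number also moved together across groups, so counts of called members in leaves are also given with a replicate block and within the first and second replicates, and the members described for leaves where their call changes in either fit. In leaves at 24 h DML3 was at 0.27 to 0.7 FPKM in the rdd libraries and at 1.76 to 3.57 in the WT libraries, without overlap, whereas ROS1 was called higher in rdd in both priming groups and DML2 in none. Values over a whole gene do not show which part of it an allele disrupts, so ROS1 and DML2 do not check the genotype labels. Of 7 root markers, 6 were at 0.39 FPKM or less in every leaf library, and the beta-glucosidase PYK10 was at 1310 ± 203 FPKM (SD, n = 3) in WT seedlings at 0 h.

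The family took a small share of all FPKM that was higher in every treated group than in its control. In WT seedlings the summed share ranged over libraries from 0.0466% to 0.055% at 0 h, from 0.111% to 0.172% at 1 h and from 0.108% to 0.126% at 3 h. In rdd seedlings it ranged from 0.0415% to 0.0582%, from 0.146% to 0.175% and from 0.0728% to 0.109%. In leaves it ranged from 0.0603% to 0.104% after water and from 0.171% to 0.231% after flg22 in WT, and from 0.0545% to 0.125% and from 0.145% to 0.172% in rdd. None of these ranges overlapped with its own control. In the priming experiment the share was 0.54% to 0.554% after water and 0.779% to 0.833% after flg22 in WT, against 0.656% to 0.715% and 0.827% to 0.831% in rdd. In bulk tissue, fewer cells of a type and less RNA per cell cannot be told apart.

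**Figure D1:**
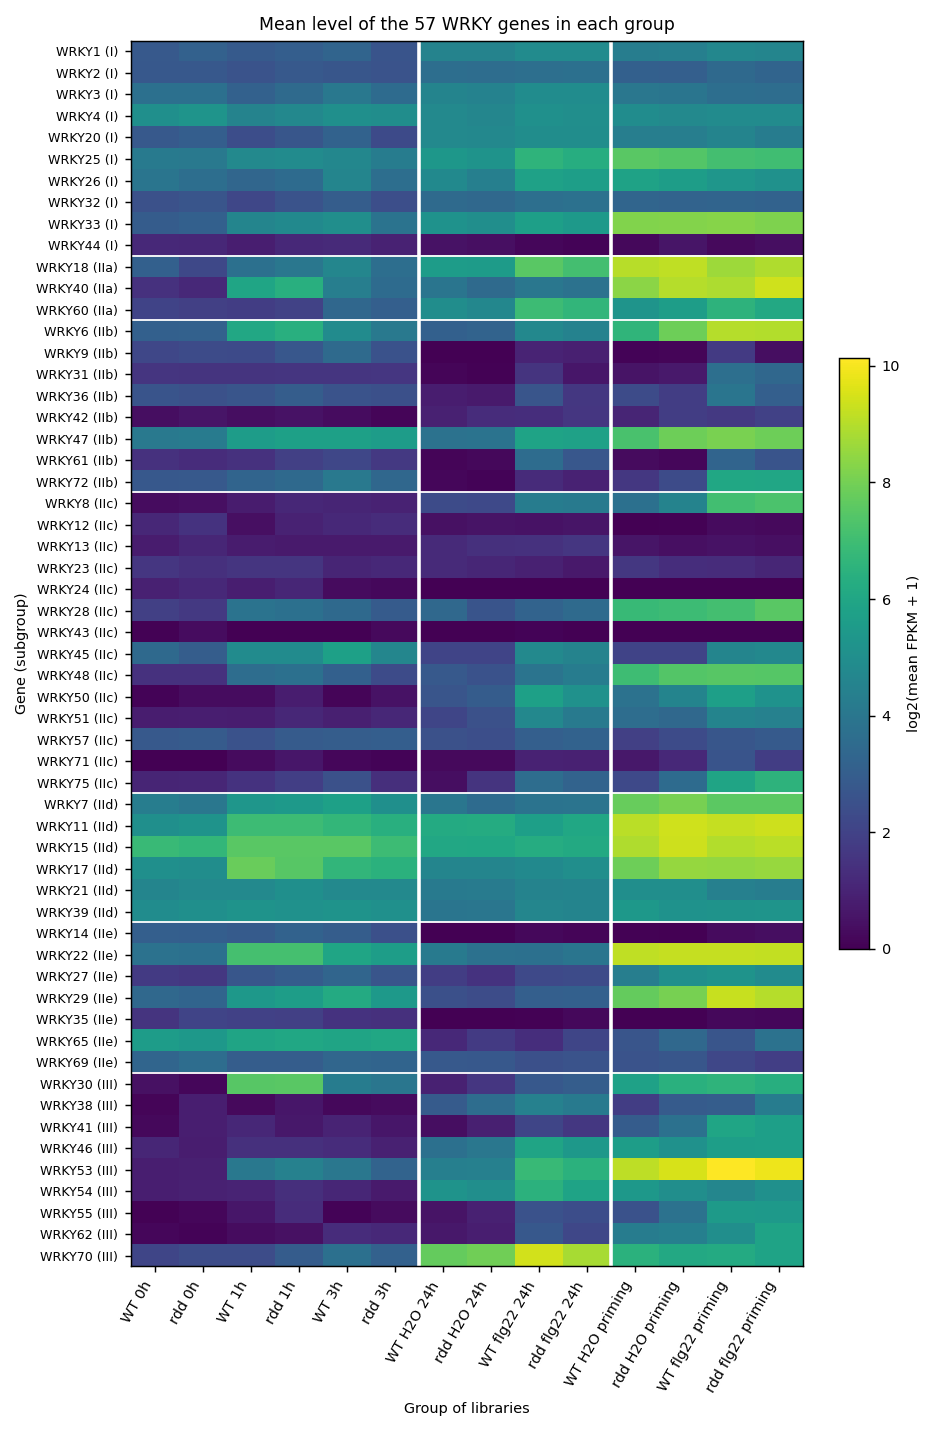
Mean level of the 57 WRKY genes (rows, ordered by subgroup) in the 14 groups (columns), as log2(mean FPKM + 1) on the colour scale. The priming columns hold the highest levels, up to 1120 FPKM for WRKY53 in WT after flg22 and hrcC, and WRKY24 is listed at 0 in every leaf and priming library.

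Different members led the family in each setting. WRKY15, a regulator of growth under osmotic and salt stress, had the highest mean at 0 h, with 117 FPKM in WT and 104 in rdd. WRKY17 (AT2G24570) led in WT at 1 h with 226 FPKM and WRKY30 (AT5G24110) in rdd with 186. WRKY15 led again at 3 h, with 184 and 123 FPKM. In mature leaves WRKY70 (AT3G56400), an activator of salicylic acid responses and repressor of jasmonate responses, led all 4 groups. In the priming experiment WRKY22 (AT4G01250) led in WT after water with 572 FPKM, and WRKY53 (AT4G23810), a regulator of leaf senescence, led in the other 3 groups with 1120 FPKM in WT after flg22 and 735 and 935 in rdd. The number of members at a mean of 1 FPKM or more was 42, 44 and 48 in WT seedlings at 0, 1 and 3 h, 39 and 48 in WT leaves after water and flg22, and 46 and 50 in the WT priming groups. The corresponding numbers in rdd were 43, 48, 44, 42, 46, 47 and 49.

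Several members were measured in seedlings and near 0 in leaves. WRKY65 (AT1G29280) of subgroup IIe measured 50.7, 44.2 and 48.8 FPKM in the WT seedlings at 0 h and 1.91, 1.67 and 0.08 in WT leaves after water. WRKY14 and WRKY35 of the same subgroup measured 7.38 ± 1.1 and 1.85 ± 0.494 FPKM (SD, n = 3) in WT seedlings at 0 h and did not pass the filter on low values in leaves. WRKY9 (AT1G68150) of subgroup IIb measured 3.61, 2.56 and 4.16 FPKM in those seedlings and was listed at 0 in all 3 WT leaf libraries after water. WRKY50, 51, 38, 46 and 54 lay the other way in the map of levels. WRKY50 (AT5G26170) measured 0, 0 and 0.25 FPKM in WT seedlings at 0 h and 4.29, 7.02 and 4.56 in WT leaves after water. WRKY46 (AT2G46400) measured 0.67, 1.92 and 0.77 FPKM in those seedlings and 15.4, 14.1 and 6.97 in those leaves. Of the 57 members, 51 passed the filter in seedlings, 49 in leaves and 50 in the priming experiment, and WRKY43 passed in none of the sets.

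Within 1 h of flg22 a set of members rose steeply in WT seedlings. Of 51 members tested, 16 were called higher and 1 lower, beside 9.62% and 7.64% of all genes. The median difference was 0.27 over the members and -0.08 over all genes, and 13 members were at least 2-fold higher. At 3 h 24 were called higher and 1 lower, beside 12.1% and 6.81% of all genes. The medians were 0.66 and 0.08, and 22 members were at least 2-fold higher. The share of all genes at least 2-fold higher was not counted in any set. The 2-fold counts are therefore not read as a trait of the family. In rdd seedlings 18 were higher and 1 lower at 1 h, beside 10.2% and 6.58% of all genes, with medians of 0.47 and -0.05. At 3 h 16 were higher and 1 lower in rdd, beside 8.04% and 8.03% of all genes, with medians of 0.19 and -0.14. Without the second rdd library at 3 h those counts were 15 and 0, and the share of all genes in that fit is not given here. The 1 h and 3 h comparisons of a genotype share their 0 h libraries. Every subgroup held members that were called higher at 1 h in both genotypes. In WT at 1 h the called members were 2 of 10 tested in group I, 1 of 3 in IIa, 2 of 7 in IIb, 3 of 11 in IIc, 3 of 6 in IId, 2 of 7 in IIe and 3 of 7 in group III. At 3 h in WT the same subgroups held 2, 3, 4, 4, 3, 3 and 5. The WT group III counts hold WRKY30 and WRKY41, and at 3 h also WRKY62. These reached 1 FPKM in seedlings only after flg22.

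WRKY30 of group III, an early gene responsive to reactive oxygen species, showed the steepest rise. Its 0 h libraries were all below 1 FPKM, so it passed the filter only through treated libraries. Its values are a description, and its calls against 0 h are not read as results. In WT it measured 0.24, 0.56 and 0.27 FPKM at 0 h, 203, 224 and 114 at 1 h and 20.2, 18.6 and 14.9 at 3 h. In the rdd libraries it stood at 0.12, 0.11 and 0.19 FPKM at 0 h, 168, 205 and 185 at 1 h and 8.64, 9.61 and 25.96 at 3 h. Every treated library of both genotypes lay above every 0 h library, and every 3 h library lay below every 1 h library. The difference at 1 h was 7.01 ± 0.31 (log2 ± SE, limma adjusted p = 3.4e-11) in WT and 7.35 ± 0.31 (adjusted p = 1.8e-11) in rdd. At 3 h it was 3.80 ± 0.31 (adjusted p = 1.1e-07) and 3.62 ± 0.31 (adjusted p = 2.3e-07).

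WRKY22 and WRKY29 (AT4G23550) of subgroup IIe are the members first placed downstream of FLS2 and its MAP kinase cascade in protoplasts. WRKY22 measured 11.6, 13.1 and 14.5 FPKM at 0 h, 171, 140.2 and 115 at 1 h and 65.02, 67.8 and 48.7 at 3 h in WT. The rdd libraries gave 11.7, 12.6 and 12.8 FPKM at 0 h, 132, 173 and 115 at 1 h and 40.9, 43.5 and 60.98 at 3 h. The 3 times did not overlap in either genotype, with the 1 h libraries highest. WRKY22 rose by 3.33 ± 0.19 at 1 h in WT (adjusted p = 6.3e-10) and by 3.37 ± 0.19 in rdd (adjusted p = 4.8e-10). WRKY29 followed another course in WT, with 8.85, 7.57 and 12.3 FPKM at 0 h, 49.2, 54.1 and 18.8 at 1 h and 53.9, 81.2 and 78.4 at 3 h. In rdd WRKY29 measured 3.91, 11.7 and 9.93 FPKM at 0 h, 45.5, 54.8 and 45.1 at 1 h and 22.8, 49.4 and 58.4 at 3 h. All treated libraries lay above the 0 h libraries, while the 1 h and 3 h values overlapped in both genotypes. Its difference at 3 h was 2.77 ± 0.40 (adjusted p = 9.2e-05) in WT and 2.23 ± 0.40 (adjusted p = 0.001) in rdd.

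WRKY40 (AT1G80840), WRKY18 and WRKY60 (AT2G25000) of subgroup IIa form complexes with one another and are known mainly as repressors of defence and abscisic acid responses. WRKY40 measured 1.28, 2.18 and 1.7 FPKM at 0 h, 81.1, 62.97 and 41.6 at 1 h and 18.04, 18.7 and 20.8 at 3 h in WT. In rdd its levels were 1.05, 1.37 and 1.36 FPKM at 0 h, 80.1, 95.9 and 70.2 at 1 h and 7.38, 6.69 and 17.9 at 3 h. It peaked at 1 h in both genotypes with no overlap between times. The difference at 1 h was 4.49 ± 0.28 (adjusted p = 2.9e-09) in WT and 5.19 ± 0.28 (adjusted p = 3.9e-10) in rdd. WRKY60 was later, with 3.42, 3.22 and 2.69 FPKM at 0 h, 2.62, 2.92 and 2.23 at 1 h and 5.99, 10.4 and 11.9 at 3 h in WT and 2.66, 3.69 and 1.95 at 0 h, 2.94, 3.05 and 2.92 at 1 h and 5.01, 5.79 and 11.2 at 3 h in rdd. Its 3 h libraries lay above all others of their genotype. WRKY60 was higher at 3 h by 1.30 ± 0.26 in WT (adjusted p = 0.0018) and by 1.1 ± 0.26 in rdd (adjusted p = 0.0084). All 3 members of the subgroup were called higher at 3 h in both genotypes. The rdd call of WRKY18 (adjusted p = 0.016) was lost in 2 of 18 fits that each left out 1 seedling library, and that of WRKY60 in 1. Each was also lost under 1 of 8 other settings. In WT the call of WRKY18 was lost in 1 of 18 such fits.

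The calmodulin-binding subgroup IId held WRKY11 (AT4G31550) and WRKY17, which are known to limit basal resistance to Pseudomonas syringae. WRKY17 measured 32.6, 34.5 and 29.5 FPKM at 0 h, 257, 188 and 232 at 1 h and 98.9, 117 and 89.4 at 3 h in WT. For rdd the values were 40.3, 28.4 and 22.3 FPKM at 0 h, 181, 179 and 187 at 1 h and 90.4, 66.6 and 103 at 3 h. The 1 h libraries were highest and the 3 h libraries intermediate in both genotypes. WRKY17 rose by 2.76 ± 0.19 at 1 h in WT (adjusted p = 8.2e-09) and by 2.59 ± 0.19 in rdd (adjusted p = 1.7e-08). WRKY11 measured 34.6, 29.98 and 31.9 FPKM at 0 h, 161, 110.5 and 90.4 at 1 h and 89.7, 113 and 108 at 3 h in WT and 36.4, 42.9 and 28.1 at 0 h, 106, 135 and 128 at 1 h and 71.8, 70.7 and 103 at 3 h in rdd. Its 1 h and 3 h libraries overlapped in WT and all lay above the 0 h libraries. WRKY11 rose by 1.83 ± 0.20 at 1 h (adjusted p = 2.7e-06) and 1.65 ± 0.20 at 3 h (adjusted p = 1.4e-05) in WT. WRKY7 (AT4G24240) of the same subgroup was called higher at both times in both genotypes, by 0.96 to 1.49. Its WT call at 1 h (adjusted p = 0.042) was lost in 9 of 18 fits that each left out 1 seedling library, and its rdd call at 3 h (adjusted p = 0.028) in 3 of 18.

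Subgroup IIb held WRKY6 (AT1G62300), a regulator of senescence and phosphate homeostasis, and WRKY47 (AT4G01720). WRKY6 measured 5.9, 7.76 and 9.2 FPKM at 0 h, 92.2, 76.4 and 32.8 at 1 h and 32.3, 32.8 and 20.6 at 3 h in WT. The mutant libraries gave 3.77, 11.02 and 8.97 FPKM at 0 h, 78.7, 96.2 and 71.1 at 1 h and 9.85, 13.7 and 24.97 at 3 h. All 1 h libraries lay above all 0 h libraries in both genotypes, while 1 rdd library at 3 h lay within the range of the rdd 0 h libraries. WRKY6 rose by 2.88 ± 0.39 at 1 h in WT (adjusted p = 3e-05) and by 3.31 ± 0.39 in rdd (adjusted p = 5.8e-06). At 3 h it was called higher in WT, by 1.77, and the rdd difference of 0.95 ± 0.39 had an adjusted p of 0.11. WRKY47 was high at both times, with 16.5, 13.8 and 17.4 FPKM at 0 h, 56.2, 50.4 and 37.6 at 1 h and 50.2, 64.7 and 45.1 at 3 h in WT and 18.2, 17.02 and 16.9 at 0 h, 51.3, 63.1 and 43.9 at 1 h and 43.8, 40.7 and 57.1 at 3 h in rdd. No treated library of WRKY47 overlapped with the 0 h libraries of its genotype, and the differences in WT were 1.53 ± 0.18 at 1 h (adjusted p = 6.3e-06) and 1.68 ± 0.18 at 3 h (adjusted p = 3e-06).

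In subgroup IIc, WRKY28 (AT4G18170), which binds the promoter of the salicylic acid gene ICS1, measured 2.54, 2.46 and 3.23 FPKM at 0 h, 15.3, 12.3 and 12.7 at 1 h and 9.67, 10.6 and 9.54 at 3 h in WT. In rdd it measured 1.82, 3.17 and 1.62 FPKM at 0 h, 10.2, 13.5 and 13.7 at 1 h and 5.13, 3.69 and 10.7 at 3 h. Its treated libraries lay above its 0 h libraries in both genotypes, and the third rdd library at 3 h reached the range of the 1 h libraries. The difference at 1 h was 1.95 ± 0.26 (adjusted p = 2.9e-05) in WT and 2.09 ± 0.26 (adjusted p = 1.3e-05) in rdd. WRKY45 (AT3G01970), known from phosphate uptake and senescence, measured 11.01, 10.8 and 8.18 FPKM at 0 h, 36.98, 22.9 and 25.3 at 1 h and 52.5, 45.1 and 59.9 at 3 h in WT. In the rdd libraries it stood at 4.23, 9.83 and 6.77 FPKM at 0 h, 26.7, 29.2 and 28.7 at 1 h and 19.9, 21.6 and 30.6 at 3 h. The WT libraries were ordered by time without overlap, and in rdd the 3 h libraries overlapped with the 1 h libraries. WRKY45 rose by 2.28 ± 0.24 at 3 h in WT (adjusted p = 2e-06) and by 1.69 ± 0.24 in rdd (adjusted p = 7.7e-05).

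**Figure D2:**
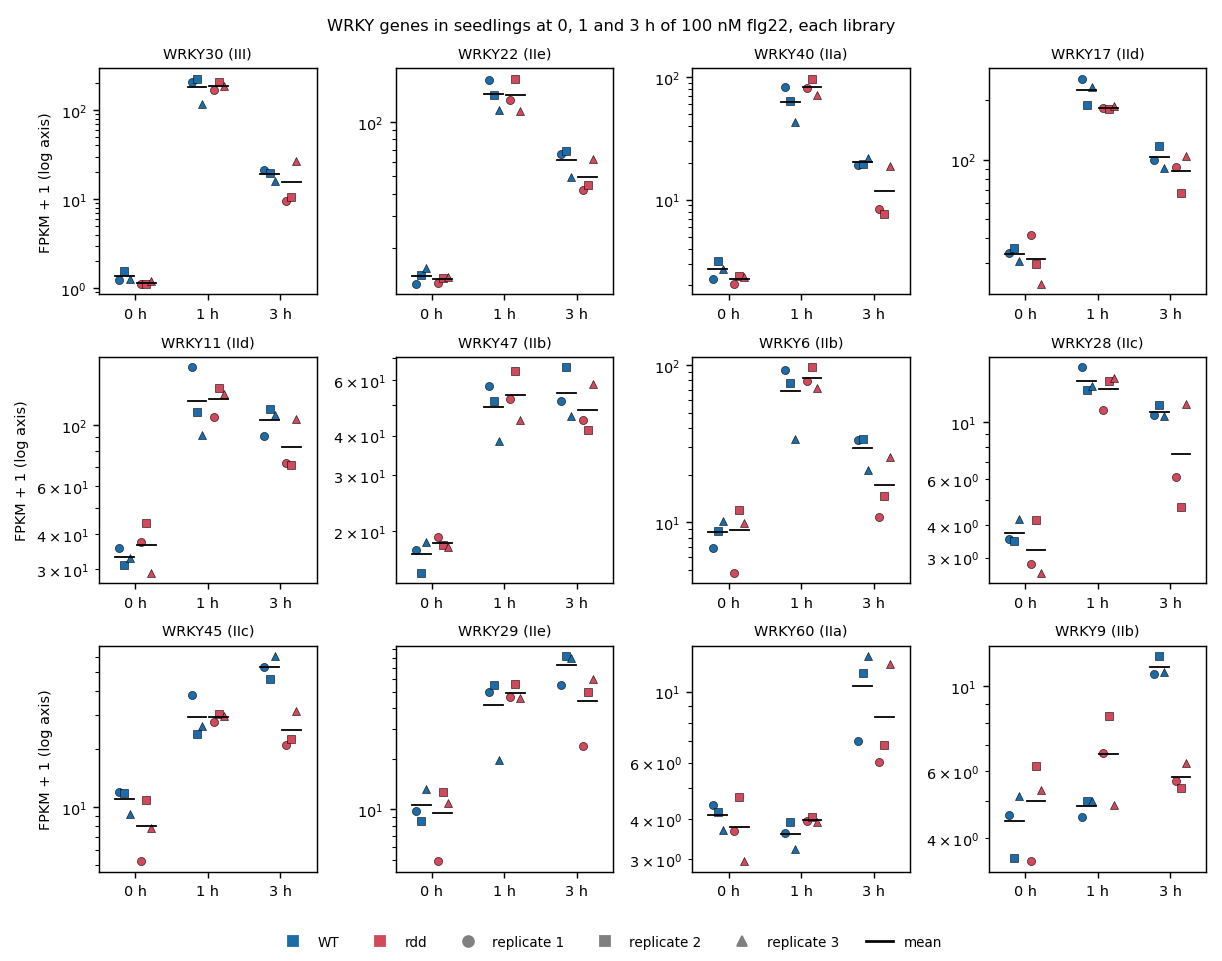
Level of 12 WRKY genes in the seedling libraries at 0, 1 and 3 h of flg22, WT and rdd in separate colours, 1 point per library with the symbol marking its replicate number and a bar at the group mean, on a log axis of FPKM + 1. WRKY30, WRKY22 and WRKY40 peak at 1 h, WRKY29 and WRKY45 in WT are highest at 3 h, and the third rdd library at 3 h lies above the other 2 for WRKY30 and WRKY40.

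Other called members of the seedling response included well-known regulators. WRKY33 (AT2G38470), needed for camalexin synthesis and resistance to Botrytis, rose by 1.56 ± 0.43 at 1 h (adjusted p = 0.016) and 2.07 ± 0.43 at 3 h (adjusted p = 0.0021) in WT, and by 1.83 ± 0.43 at 1 h in rdd (adjusted p = 0.0052). WRKY53 rose by 3.06 ± 0.44 and 3.14 ± 0.44 at the 2 times in WT and by 3.61 ± 0.44 and 2.24 ± 0.44 in rdd (adjusted p = 5.7e-05, 5.7e-05, 8.7e-06 and 0.0019 in that order). WRKY70 rose at 3 h in both genotypes, by 1.61 in WT and 0.80 in rdd, and the rdd call (adjusted p = 0.04) was lost in 6 of 18 fits with 1 library left out. Single members were called lower. These were WRKY12, a regulator of secondary wall formation, in WT at 1 h with -0.69 ± 0.23 (adjusted p = 0.049) and WRKY23 in WT at 3 h with -0.52 ± 0.16 (adjusted p = 0.034). In rdd they were WRKY4, known from resistance to necrotrophs, at 1 h with -0.53 ± 0.17 (adjusted p = 0.046) and WRKY24 at 3 h with -0.93 ± 0.28 (adjusted p = 0.034). WRKY12 and WRKY24 had means of 1.2 and 1.25 FPKM at 0 h. When each of the 18 seedling libraries was left out in turn, WRKY12 lost its call in 13 fits, WRKY4 in 13, WRKY23 in 5 and WRKY24 in 4.

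Between 1 h and 3 h WRKY30, WRKY40, WRKY22 and WRKY17, which had been highest at 1 h, fell in both genotypes. In WT 9 of 51 members were called higher and 5 lower, beside 11.9% and 6.77% of all genes. The number higher was 3 without the third WT library at 1 h and 5 without the third WT library at 3 h. In rdd 1 was higher and 8 were lower, beside 4.16% and 7.26% of all genes. There 6 were lower without the second rdd library at 3 h and 13 without the third. Shares of all genes in these left-out fits are not given here, so the changes are not read as changes of the family alone. The 1 higher member, WRKY60, lost its call when any 1 of the rdd 1 h libraries or the third rdd library at 3 h was left out. In WT the members called lower were WRKY30 with -3.22, WRKY40 with -1.59, WRKY22 with -1.22, WRKY17 with -1.14 and WRKY23 with -0.50. In rdd WRKY30 fell by 3.73, WRKY40 by 2.95, WRKY6 by 2.36, WRKY48 by 1.55, WRKY22 by 1.51, WRKY17 by 1.09, WRKY28 by 0.94 and WRKY25 (AT2G30250) by 0.66 on the log2 scale.

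Few differences between the genotypes were called in seedlings. At 0 h limma called 0 of 51 members and 3 had an unadjusted p under 0.05, beside 0.323% of all genes called. At 1 h it called 0, with 2 unadjusted, beside 0.286% of all genes. At 3 h it called 1, with 20 unadjusted, beside 0.953% of all genes. The difference in response, tested as an interaction, gave 0 calls at 1 h with 2 unadjusted, beside 0.0106% of all genes, and 0 at 3 h with 6 unadjusted, beside 0.00529%. The called member was WRKY45 at 3 h, for which the 3 WT libraries given above lay above all 3 rdd libraries. Its difference was -1.11 ± 0.24 (adjusted p = 0.032), with an adjusted p of 0.097 without the second rdd library at 3 h. Its call was lost without any 1 WT library at 3 h and without the first or the second rdd library at 3 h.

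At 3 h the number of members called between the genotypes depended on which rdd libraries were used. Of 51 members 46 had a negative difference between rdd and WT, of which the 1 named was called, beside 65.7% of all genes with a negative difference. The median was -0.43 over the members and -0.14 over all genes. Without the third rdd library at 3 h limma called 15 members, all lower in rdd, beside 9.07% of all genes. These were WRKY3, 20, 32 and 33 of group I, WRKY18 and 40, WRKY9 and 61, WRKY28, 45 and 48, WRKY15, and WRKY30, 41 and 53 of group III. Without the second rdd library, which stood apart, it called 0 with 7 unadjusted, beside 0.658% of all genes, with 39 of 51 members and 54.8% of all genes negative and medians of -0.25 and -0.04. Without the first it called 0 with 8 unadjusted, beside 0.44% of all genes, with 48 members and 67.2% of all genes negative and medians of -0.41 and -0.16. WRKY33 shows the spread, with 33.7, 29.6 and 29.4 FPKM in WT and 6.27, 12.4 and 21.7 in rdd at 3 h. Of the members called higher against 0 h, WT and rdd shared 15 at 1 h, which is 93.8% of the 16 in WT and 83.3% of the 18 in rdd. At 3 h they shared 15, which is 62.5% of the 24 in WT and 93.8% of the 16 in rdd, and no member passed the interaction. The same overlap over all genes was not counted, so these shares are not read as a trait of the members.

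**Figure D3:**
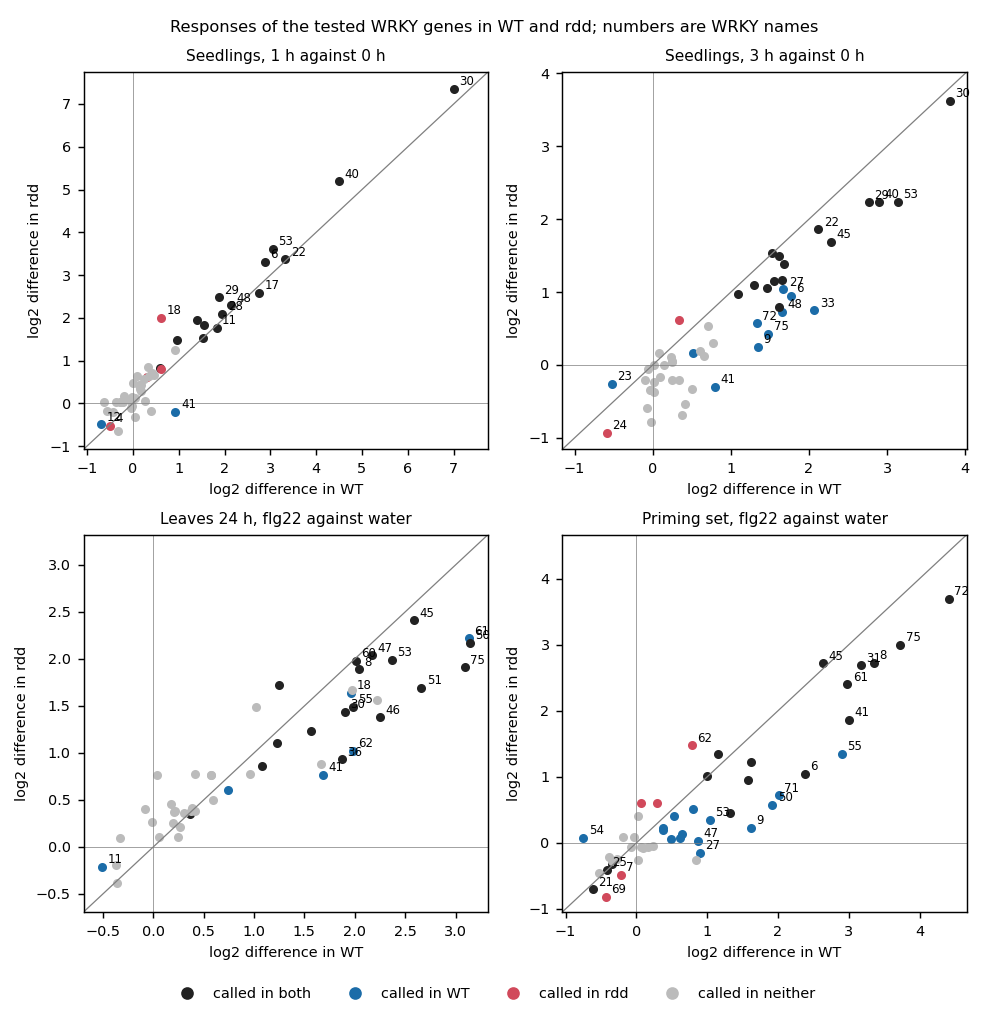
Difference after flg22 in WT (horizontal axis) and rdd (vertical axis) on the log2(FPKM + 1) scale for each member tested, in seedlings at 1 h and 3 h, leaves at 24 h and primed leaves, coloured by the genotypes in which it was called, with the line of equal differences. WRKY30 lies farthest out at 1 h with 7.01 in WT and 7.35 in rdd, and in the primed leaves WRKY6 lies below the line with 2.38 in WT and 1.05 in rdd.

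Genes that act before, with or after WRKY proteins were also called in seedlings. Of all genes, 9.62% rose in WT and 10.2% in rdd at 1 h, and 12.1% and 8.04% at 3 h. Of 16 genes of the upstream pathway, 10 rose in WT and 12 in rdd at 1 h, among them the flg22 receptor FLS2 (2.00 in WT), its co-receptor BAK1 (1.93), the kinase BIK1 (2.05) and the MAP kinase kinase MKK4 (2.60). The median of the 16 was 1.32 in WT and 1.38 in rdd at 1 h, and 9 and 7 were higher at 3 h. From 1 h to 3 h 10 fell and 2 rose in WT, beside 6.77% and 11.9% of all genes, and 11 fell in rdd, beside 7.26%. VQ proteins bind WRKY domains, and of 7 tested 4 rose in WT and 5 in rdd at 1 h, among them SIB1 (1.25), a partner of WRKY33, and the jasmonate regulator JAV1 (1.98). Of 14 reported WRKY target genes tested, 7 rose at 1 h and 9 at 3 h in WT, with FRK1, the marker gene of the FLS2 cascade, at 6.15 at 3 h. In rdd 9 rose at 1 h, and 5 rose and 1 fell at 3 h. The gene that fell was NHL10, a flg22 marker gene that was also lower in rdd than in WT at 3 h, with a difference of -2.69 ± 0.18 (adjusted p = 1.3e-07). Leaf and root markers moved in the same comparisons. Of 6 photosynthesis genes used as leaf markers 2 fell at 1 h and 6 at 3 h in WT, and 2 and 3 in rdd, while of 7 root markers 3 fell at 3 h in WT and 2 in rdd. Of all genes 7.64% fell at 1 h and 6.81% at 3 h in WT, and 6.58% and 8.03% in rdd. Their part in the results was not tested.

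At 24 h in mature WT leaves the most called members by number were in subgroup IIc and group III, which are among the larger subgroups. In WT 22 of 49 members tested were called higher after flg22 and 1 lower, beside 14.8% and 8.3% of all genes. The medians were 0.96 over the members and 0.10 over all genes, and 20 members were at least 2-fold higher. In rdd 17 were called higher and 0 lower, with 27 at an unadjusted p under 0.05 in either direction, beside 12.8% and 3.72% of all genes. The medians in rdd were 0.78 and 0.18, and 14 members were at least 2-fold higher. As in seedlings, no 2-fold share of all genes stands beside these counts. Without the block the 17 were all among the 22 of WT, which is 77.3% of that list. The overlap over all genes was not counted, here or in the leaf fits below. The number called in rdd fell to 11 when the first rdd water library or the first rdd flg22 library was left out. The shares of all genes in those fits are not given here, so this is not read as a change of the family alone. Subgroup IIa held 2 called members of 3 tested in WT and 1 in rdd. Subgroup IIc held 6 of 10 in both, and group III 6 of 9 in WT and 4 in rdd. Subgroup IIb held 5 of 7 in WT and 4 in rdd. The IIb counts hold WRKY72 and, in WT, WRKY61, which reached 1 FPKM in leaves only after flg22. Subgroup IIe held no called member of 5 in either genotype without the block.

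Replicate numbers moved together in leaves, and a fit with the replicate block called more. It gave 32 members higher and 2 lower in WT, beside 29.6% and 17.9% of all genes. In rdd it gave 31 higher and 0 lower, with 1 lower unadjusted, beside 30.4% and 10.9% of all genes. Within the first and second replicates, where 47 members were tested, 31 were higher and 2 lower in WT, beside 31.5% and 18.1% of all genes, and 29 were higher and 1 lower in rdd, beside 32.3% and 13.5%. With the block the genotypes shared 27 higher members, and WRKY4, 7, 27 and 32 were called in rdd and not in WT (adjusted p = 0.04, 0.021, 0.03 and 0.03). WRKY33, 38, 54, 62 and 70 were called in WT and not in rdd. Within the first and second replicates they shared 28, and WRKY4 was called in rdd and not in WT. WRKY38, 41 and 62 were called there in WT and not in rdd. No member passed the interaction in either fit. In subgroup IIe the block called WRKY29 higher in WT (adjusted p = 0.027) and rdd (adjusted p = 0.0096), WRKY27 higher in rdd and WRKY69 lower in WT (adjusted p = 0.023). Within the first and second replicates WRKY29 was called higher in both genotypes and WRKY22 lower in WT. WRKY50, 51, 46, 55, 60, 8 and 25, described next, were called higher in both genotypes in all 3 fits.

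WRKY50 and WRKY51 (AT5G64810) of subgroup IIc, which are linked to salicylic acid signalling and repression of jasmonate responses, were among the strongest. WRKY50 measured 4.29, 7.02 and 4.56 FPKM after water and 58.2, 51.2 and 50.9 after flg22 in WT. The rdd libraries gave 4.93, 7.39 and 7.88 FPKM after water and 37.9, 36.9 and 26.2 after flg22. No flg22 library overlapped with a water library, and the 3 WT flg22 libraries lay above the 3 rdd flg22 libraries. The rise was 3.14 ± 0.22 (adjusted p = 6e-05) in WT and 2.17 ± 0.22 (adjusted p = 0.00056) in rdd, with an interaction of -0.97 ± 0.31 (adjusted p = 1). WRKY51 measured 3.33, 1.58 and 5.05 FPKM after water and 24.95, 19.6 and 30.96 after flg22 in WT, and 3.65, 4.11 and 6.47 after water and 19.3, 16.98 and 15.5 after flg22 in rdd. The treatments did not overlap in either genotype. WRKY51 rose by 2.66 ± 0.31 in WT (adjusted p = 0.00047) and 1.69 ± 0.31 in rdd (adjusted p = 0.0066).

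Group III held WRKY46, a partner of WRKY70 and WRKY53 in basal resistance, and WRKY55 (AT2G40740). WRKY46 measured 15.4, 14.1 and 6.97 FPKM after water and 71.1, 56.2 and 50.9 after flg22 in WT, and 17.5, 15.8 and 12.6 after water and 48.7, 43.9 and 32.8 after flg22 in rdd. WRKY55 measured 0.62, 0.56 and 0.2 FPKM after water and 4.7, 3.52 and 6.18 after flg22 in WT, and 0.94, 1.32 and 0.48 after water and 3.63, 4.74 and 4.58 after flg22 in rdd. For both genes every flg22 library lay above every water library of its genotype. WRKY46 rose by 2.25 ± 0.28 in WT (adjusted p = 0.00063) and 1.38 ± 0.28 in rdd (adjusted p = 0.0099). WRKY55 rose by 1.98 ± 0.23 (adjusted p = 5e-04) and 1.49 ± 0.23 (adjusted p = 0.0036). WRKY55 lies next to WRKY54 (AT2G40750) in the RefSeq gene order.

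WRKY60 and WRKY8 (AT5G46350) also rose in leaves of both genotypes. WRKY60 measured 26.4, 25.8 and 37.8 FPKM after water and 126, 113 and 127 after flg22 in WT, and 22.9, 20.3 and 31.2 after water and 110.5, 87.01 and 102 after flg22 in rdd. WRKY8, a IIc member, measured 4.63, 5.65 and 1.64 FPKM after water and 19.9, 19.99 and 14.7 after flg22 in WT, and 4.14, 4.46 and 2.72 after water and 14.4, 15.7 and 19.8 after flg22 in rdd. Neither gene overlapped between treatments. WRKY60 rose by 2.01 ± 0.20 (adjusted p = 0.00022) in WT and 1.98 ± 0.20 (adjusted p = 0.00054) in rdd. WRKY8 rose by 2.04 ± 0.32 (adjusted p = 0.0021) and 1.89 ± 0.32 (adjusted p = 0.0051). Of group I, WRKY25, known from heat tolerance and as a relative of WRKY33, measured 44.04, 46.2 and 30.5 FPKM after water and 92.2, 88.1 and 102 after flg22 in WT, and 33.3, 39.9 and 32.97 after water and 89.1, 84.4 and 60.3 after flg22 in rdd. It rose by 1.23 ± 0.20 in WT (adjusted p = 0.0024) and 1.1 ± 0.20 in rdd (adjusted p = 0.0065), again without overlap.

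WRKY36 (AT1G69810) of subgroup IIb was the 1 member called between the genotypes in leaves, and only in the fit with the replicate block. In WT it measured 1.27, 0.6 and 0.45 FPKM after water and 5.79, 4.95 and 5.39 after flg22. In rdd its levels were 0.83, 0.73 and 0.38 FPKM after water and 2.4, 2.23 and 1.78 after flg22. Both genotypes rose without overlap, and every WT flg22 library lay above every rdd flg22 library. The rise was 1.87 ± 0.20 (adjusted p = 0.00032) in WT and 0.93 ± 0.20 (adjusted p = 0.013) in rdd. Between genotypes after flg22 limma called 0 of 49 members without the block, with 2 unadjusted, beside 0.171% of all genes. With the replicate block it called WRKY36 alone, with -1.03 ± 0.15 (adjusted p = 0.032), beside 0.314% of all genes, and the adjusted p was 0.26 within the first and second replicates. After water it called 0, with 1 unadjusted, beside 0.0881% of all genes. The interaction gave 0, with 2 unadjusted, beside 0% of all genes.

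The calls of WRKY70 and its close relative WRKY54 depended on the third leaf replicate. WRKY70 measured 112, 60.5 and 467 FPKM after water and 739, 668 and 659.8 after flg22 in WT, and 76.6, 73.95 and 575 after water and 468, 445 and 410.4 after flg22 in rdd. WRKY54 measured 15.4, 8.37 and 82.8 FPKM after water and 93.4, 93.6 and 84.7 after flg22 in WT, and 8.85, 7.06 and 77.7 after water and 54.9, 56.9 and 60.7 after flg22 in rdd. In the water groups of both genotypes the third library was several-fold above the first and second, while the flg22 libraries lay close together. The difference of WRKY70 in WT was 2.22 ± 0.83 with an adjusted p of 0.084, 0.024 with the replicate block and 0.00048 within the first and second replicates, where it was 3.08 ± 0.26. That of WRKY54 in WT was 1.97 ± 0.90 with adjusted p-values of 0.15, 0.044 and 0.00049 in the same order. In rdd the difference was 1.56 ± 0.83 for WRKY70 and 1.67 ± 0.90 for WRKY54, and neither was called, with adjusted p-values of 0.24 and 0.25 without the block and 0.09 and 0.084 with it. Within the first and second replicates the rdd values were 2.58 ± 0.26 for WRKY70 (adjusted p = 0.00094) and 2.67 ± 0.25 for WRKY54 (adjusted p = 0.00082). The organelle share of these water libraries differed as given above, and its part in the result was not tested.

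In WT leaves without the block the 1 member called lower was WRKY11, which had risen in the seedlings. It measured 75.9, 73.5 and 69.8 FPKM after water and 50.7, 51.6 and 50.7 after flg22 in WT, and 70.6, 82.9 and 68.6 after water and 62.7, 53.5 and 76.6 after flg22 in rdd. The WT treatments did not overlap, and the rdd treatments did. The difference was -0.51 ± 0.15 in WT (adjusted p = 0.035, and 0.015 with the replicate block), and the call was lost in 8 of 12 fits that each left out 1 library. In rdd it was -0.21 ± 0.15 (adjusted p = 0.38, and 0.25 with the block), and within the first and second replicates it was -0.40 ± 0.12 (adjusted p = 0.033). WRKY22, one of the strongest members in seedlings, measured 24.5, 20.8 and 5.61 FPKM after water and 16.1, 15.4 and 5.57 after flg22 in WT leaves, a difference of -0.33 ± 0.61 (adjusted p = 0.76). Within the first and second replicates the WT difference of WRKY22 was -0.50 ± 0.10 (adjusted p = 0.0077). The remaining members called in both genotypes were WRKY1, 6, 30, 45, 47, 48, 53, 72 and 75, with WT differences from 0.36 for WRKY1 to 3.09 for WRKY75 (AT5G13080). When each of the 12 libraries was left out in turn, WRKY1 lost its call in 8 fits in WT and 11 in rdd. WRKY48 lost its call in 10 and 3, and WRKY45 in 4 and 8. In rdd alone WRKY75 lost its call in 7 fits, WRKY72 in 3 and WRKY6 in 2. WRKY30, 47 and 53 kept theirs. WRKY72 did not pass the filter within the first and second replicates. WRKY72 and WRKY61 reached 1 FPKM in leaves only after flg22, so their leaf calls are not read as results. Without the block WRKY18, 39, 41, 61 and 62 were called in WT and not in rdd, and as given above no member passed the interaction. With the block WRKY18, 39, 41 and 61 were called in rdd too (adjusted p = 0.011, 0.0092, 0.041 and 0.008).

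**Figure D4:**
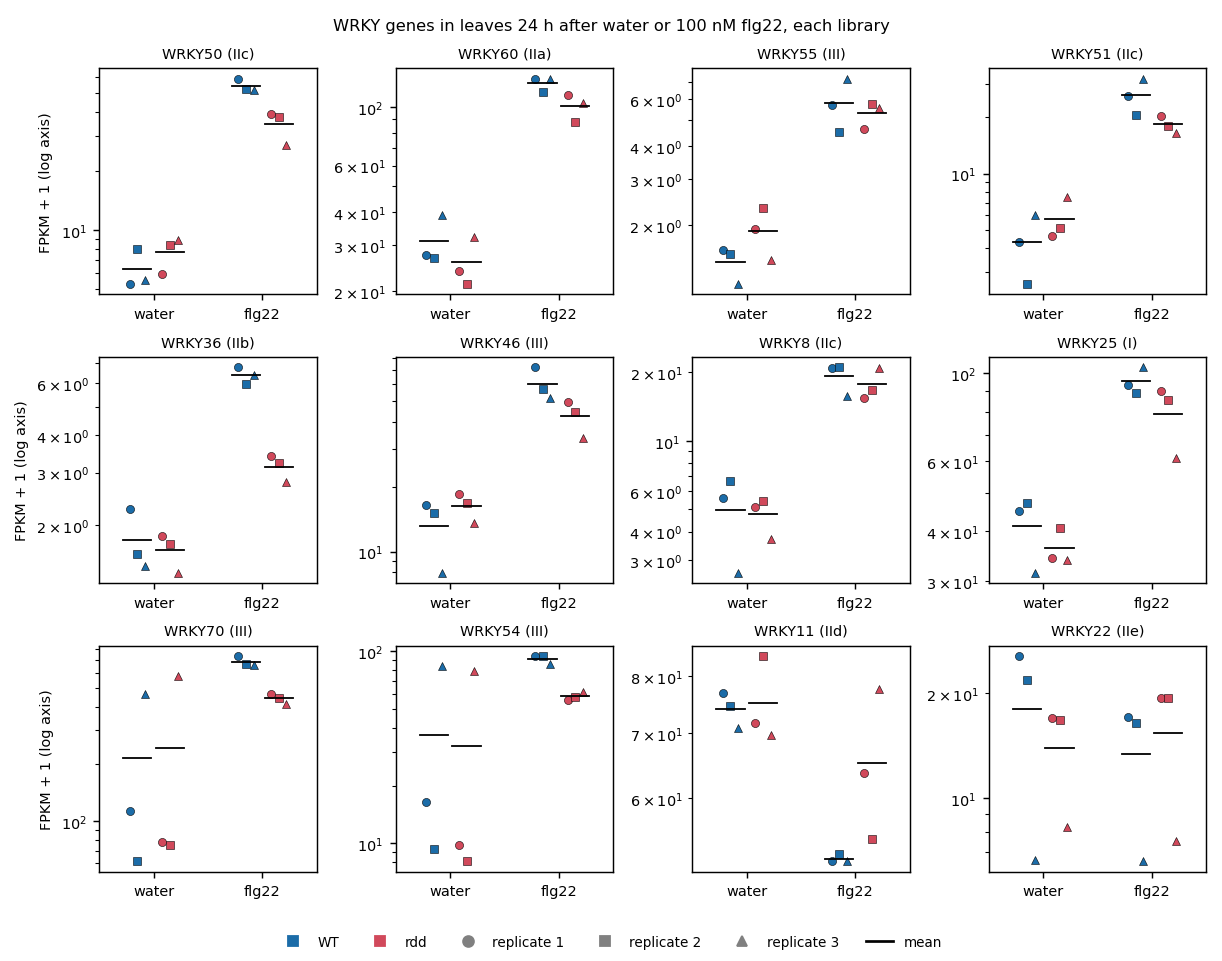
Level of 12 WRKY genes in the leaf libraries after water or flg22 for 24 h in WT and rdd, 1 point per library with the symbol marking its replicate number and a bar at the group mean, on a log axis of FPKM + 1. WRKY50 rises from means of 5.29 to 53.5 FPKM in WT, and the third water library stands high for WRKY70 and WRKY54 in both genotypes.

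Of all genes in leaves, 14.8% rose and 8.3% fell in WT, and 12.8% and 3.72% in rdd. Among the associated genes, 7 of 16 upstream genes rose in WT and 5 in rdd, among them MKK4 (1.2 in WT and 0.82 in rdd). Of 7 VQ genes tested 1 rose in each genotype, which was JAV1 (1.84 and 1.56). Of 18 reported targets 13 rose and 1 fell in WT and 10 rose in rdd, with the salicylic acid marker PR1 at 8.19 in WT and 5.90 in rdd. The target that fell in WT was RRTF1 (-1.88). Of 6 leaf markers 2 fell in WT and 1 in rdd, and their part in the results was not tested.

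In the priming experiment all leaves had received hrcC for 1 h, and those given flg22 the day before were compared with those given water. In WT 27 of 50 members tested were called higher after flg22 and 4 lower, beside 22.4% and 23% of all genes. In rdd 16 were called higher and 5 lower, beside 22% and 18.6% of all genes. The medians were 0.57 over the members and 0 over all genes in WT, and 0.21 and 0.03 in rdd. In that order 18 and 12 members were at least 2-fold higher, again without a 2-fold share of all genes. Both genotypes shared 13 higher members, which is 48.1% of the WT list and 81.2% of the rdd list. The overlap over all genes was not counted, so these shares are not read as a trait of the members. The number lower in WT fell to 2 without the second water library or either flg22 library. The number lower in rdd fell to 3 without the second water library and to 2 without the second flg22 library. WRKY9, 1 of the 27, reached 1 FPKM in the 2 WT flg22 libraries and in no other of the set, so it passed the filter only through the group where it was high and its call is not read as a result. WRKY9 is also among the 18 members at least 2-fold higher and in the WT list behind the 48.1%. Counted with WRKY9, 8 of 8 members tested in subgroup IIb and 8 of 10 in IIc were called higher in WT. In rdd 5 and 5 were. Since the IIb counts hold calls that are not read as results, they are not compared between the genotypes.

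WRKY72 (AT5G15130), known from basal defence, showed the largest difference among the members in WT. It measured 1.85 and 2.42 FPKM after water and 66.9 and 63.8 after flg22 in WT, and 3.46 and 4.4 after water and 62.1 and 63.7 after flg22 in rdd. The difference was 4.41 ± 0.13 (adjusted p = 8.7e-06) in WT and 3.70 ± 0.13 (adjusted p = 2.4e-05) in rdd. WRKY75, which regulates phosphate starvation responses and senescence, measured 2.38 and 4.93 FPKM after water and 52.3 and 64.8 after flg22 in WT, and 9.1 and 12.4 after water and 96.3 and 88.2 after flg22 in rdd. Neither gene overlapped between treatments. WRKY75 rose by 3.73 ± 0.26 in WT (adjusted p = 9e-05) and 3.00 ± 0.26 in rdd (adjusted p = 0.00024). WRKY8, WRKY41 and WRKY45 were also called in both genotypes, with differences from 2.64 to 3.36 in WT and from 1.86 to 2.73 in rdd. WRKY31 and WRKY61 were called in both too, but reached 1 FPKM in this set only after flg22. They passed the filter only where they were high, so their calls are not read as results. Over the 8 responses to flg22 measured against 0 h or water, 41 of 57 members were called higher in at least 1. The share of all genes called higher in at least 1 was not counted, so this number is not read as a trait of the family. WRKY45 was the only member called higher in all 8. Its rdd leaf call (adjusted p = 0.049) was lost in 8 of 12 fits that each left out 1 leaf library, and its WT leaf call (adjusted p = 0.029) in 4 of 12.

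WRKY21, 25, 3, 54, 69 and 7 were the 6 members with the smallest adjusted p among those called lower after flg22, and all 6 calls came from the primed leaves. WRKY21 (AT2G30590) of subgroup IId measured 29.4 and 33.5 FPKM after water and 21.3 and 19.1 after flg22 in WT, and 33.8 and 27.8 after water and 19.4 and 17.7 after flg22 in rdd. It fell in both genotypes without overlap, with -0.61 ± 0.13 in WT (adjusted p = 0.0062) and -0.70 ± 0.13 in rdd (adjusted p = 0.004). WRKY25 measured 176 and 193 FPKM after water and 144 and 132 after flg22 in WT, and 173 and 168 after water and 135 and 120.3 after flg22 in rdd. WRKY25 was called higher in seedlings and in leaves at 24 h, and its differences here were -0.42 ± 0.10 in WT (adjusted p = 0.011) and -0.41 ± 0.10 in rdd (adjusted p = 0.013). WRKY3 (AT2G03340) of group I, known with WRKY4 from resistance to necrotrophs, measured 16.1 and 14.1 FPKM after water and 11.6 and 11.6 after flg22 in WT, and 14.3 and 14.3 after water and 11.5 and 11.2 after flg22 in rdd. Its differences were -0.35 ± 0.10 (adjusted p = 0.026) and -0.32 ± 0.10 (adjusted p = 0.041). Neither WRKY25 nor WRKY3 overlapped between treatments.

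The other 3 were called lower in a single genotype. WRKY54 measured 40.8 and 41.4 FPKM after water and 21.5 and 26.7 after flg22 in WT, a difference of -0.75 ± 0.20 (adjusted p = 0.018). In rdd WRKY54 measured 33.8 and 28.1 FPKM after water and 40.4 and 26.4 after flg22 (adjusted p = 0.77). WRKY69 (AT3G58710) measured 4.61 and 6.55 FPKM after water and 2.88 and 2.52 after flg22 in rdd, a difference of -0.82 ± 0.17 (adjusted p = 0.0079), and 5.47 and 4.66 after water and 3.39 and 3.59 after flg22 in WT (adjusted p = 0.077). The treatments did not overlap for WRKY54 in WT or WRKY69 in either genotype. WRKY7 measured 258 and 268 FPKM after water and 207 and 172 after flg22 in rdd, a difference of -0.48 ± 0.11 (adjusted p = 0.011), and 226 and 215 after water and 195 and 185 after flg22 in WT (adjusted p = 0.14). No interaction was called for these 3, with adjusted p-values of 0.32, 0.59 and 0.56 for WRKY54, WRKY69 and WRKY7. When each of the 8 libraries was left out in turn, WRKY3 lost its call in 3 fits in WT and 6 in rdd, and WRKY25 in 2 fits in each genotype. WRKY54 lost its call in 3 fits and WRKY7 in 2, while WRKY69 and WRKY21 kept theirs.

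After water and hrcC, 3 of 50 members were called between rdd and WT, with 21 at an unadjusted p under 0.05, beside 0.945% of all genes called. All 3 called members were higher in rdd. WRKY6 measured 101 and 95.8 FPKM in WT and 242 and 233 in rdd, a difference of 1.27 ± 0.09 (adjusted p = 0.0012). WRKY47 measured 145 and 149 FPKM in WT and 224 and 243 in rdd, a difference of 0.67 ± 0.09 (adjusted p = 0.023). WRKY27 (AT5G52830), known from symptom development under Ralstonia, measured 18.7 and 19.1 FPKM in WT and 33.3 and 31.1 in rdd, a difference of 0.74 ± 0.09 (adjusted p = 0.018). Both rdd libraries lay above both WT libraries for all 3 genes. The count fell to 1 without the first WT library or either rdd library, and WRKY47 and WRKY27 each lost their call in 4 of 8 fits with 1 library left out.

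After flg22 and hrcC, 3 of 50 members were called between the genotypes, with 12 at an unadjusted p under 0.05, beside 2.08% of all genes called. WRKY9 measured 2.17 and 2.46 FPKM in WT and 0.28 and 0.34 in rdd, and since it passed the filter only through these WT libraries, its values are a description and its call is not read as a result. WRKY36 measured 15.2 and 13.5 FPKM in WT and 7.66 and 7.15 in rdd, a difference of -0.86 ± 0.16 (adjusted p = 0.042). WRKY65 measured 5.95 and 4.93 FPKM in WT and 12.6 and 13.4 in rdd, a difference of 1.12 ± 0.16 (adjusted p = 0.017). WRKY36 was lower and WRKY65 higher in both rdd libraries. In the leaves at 24 h, WRKY36 was also lower in every rdd flg22 library than in every WT one, as given above. The count fell to 0 without either WT library or the first rdd library and to 1 without the second rdd library, and without either WT library WRKY9 did not pass the filter and was not tested. WRKY36 lost its call in 6 of 8 fits that left out 1 library each and WRKY65 in 4 of 8.

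**Figure D5:**
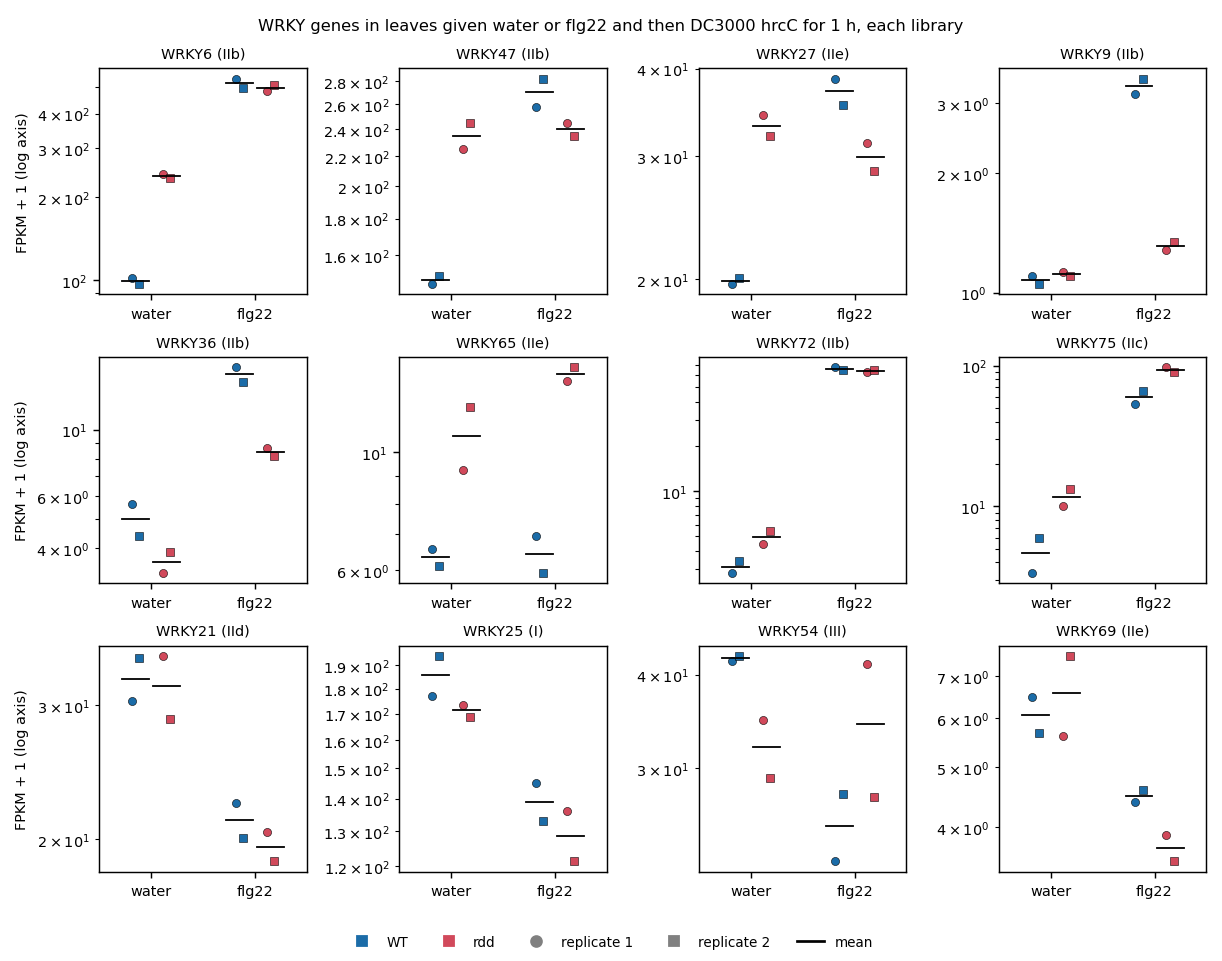
Level of 12 WRKY genes in leaves given water or flg22 and then hrcC for 1 h, in WT and rdd, 1 point per library with the symbol marking its replicate number and a bar at the group mean, on a log axis of FPKM + 1. For WRKY6 the WT libraries go from 101 and 95.8 to 534 and 496 FPKM and the rdd libraries from 242 and 233 to 483 and 505.

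WRKY6 was the 1 member called in the difference of the responses, with 15 members at an unadjusted p under 0.05, beside 0.0956% of all genes called. In WT it measured 101 and 95.8 FPKM after water and 534 and 496 after flg22, and in rdd 242 and 233 after water and 483 and 505 after flg22. After water the genotypes did not overlap, and after flg22 the rdd value of 505 FPKM lay between the 2 WT values. The rise was 2.38 ± 0.09 (adjusted p = 1.6e-05) in WT and 1.05 ± 0.09 (adjusted p = 2e-04) in rdd, and the difference of the rises was -1.32 ± 0.13 (adjusted p = 0.027). With each library left out in turn the adjusted p ranged from 0.036 to 0.12, and 6 of 8 such fits lost the call. Only the fits without the second rdd water library or the second rdd flg22 library kept it.

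In the priming experiment 22.4% of all genes rose and 23% fell in WT, and 22% and 18.6% in rdd. There 2 of 16 upstream genes rose and 1 fell in WT, and 1 rose and 3 fell in rdd. Of 7 VQ genes 2 rose and 1 fell in WT, and 2 rose and 2 fell in rdd. Of 18 reported targets 12 rose and 1 fell in WT and 10 rose in rdd. After water and hrcC, 3 targets were higher in rdd than in WT, which were PR1 (2.17), the camalexin and indole enzyme gene CYP71A12 (1.85) and FRK1 (0.61), and NHL10 was lower (-3.35). The response of PR1 was smaller in rdd, by an interaction of -2.73 ± 0.25 (adjusted p = 0.026). All 6 leaf markers fell after flg22 in both genotypes, with medians of -1.85 in WT and -1.87 in rdd, and their part in the results was not tested.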

How the data were processed

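RNA libraries of whole seedlings and of leaves were analysed, 38 in 14 groups named by the sample labels, and the 32 bisulfite samples of the series were not analysed here. The submitters' processing notes name the TAIR10 build and, among other tools, DESeq2, featureCounts and HISAT2; their versions and the strand setting are not given in the sources used here. The deposited table holds values to 2 decimals that are read as FPKM made by the authors. Neither a header nor a label names the unit, the column sums run from 904625 to 1231239, and the true read depth is unknown, so no counting interval is given. The priming groups hold 2 libraries each here, while the series text speaks of 3 repeats.

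Genes at 1 FPKM or more in at least 3 libraries of a set (2 in the priming set) were tested, which left 18886 genes in seedlings, 18164 in leaves and 17780 in the priming set. Members that reached 1 FPKM only in treated libraries, such as WRKY30, WRKY41 and WRKY62 in seedlings, passed the filter through those libraries. Their calls against 0 h or water stay in the counts and are not read as results. limma 3.58.1 in R 4.3.3 was run on log2(FPKM + 1) with 1 mean per group and moderated variances with a trend and robust weights. p-values were adjusted by Benjamini-Hochberg over all genes of a set, with calls at adjusted p under 0.05. The steps were tested on simulated data. In leaves the deviations of same-numbered libraries correlated at 0.31 to 0.9 in all 18 pairs (median 0.66). Differently numbered libraries correlated at -0.84 to 0.74 (median -0.57), and 7 of 12 libraries were closest to their own number. The third replicate also differed from the first and second in organelle share. A pairing by number and a split of the third replicate cannot be told apart here. Blocked values stand beside the leaf results, and the block assumes that the numbers pair the libraries. The alternatives were other pseudocounts, filters, scaling and variance settings, fits of the compared groups only, a replicate block, and each library left out in turn. The leaf fit within the first and second replicates and the one without 279 organelle genes were added after the data were seen.

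The family and so its members, the gene lists and the tests were chosen with earlier results of these data known, while no measured value enters the rule that lists the members. The members described in full were up to 8 with the smallest adjusted p in the mean response of both genotypes at seedlings 1 h, seedlings 3 h and leaves 24 h, every member called between genotypes or in an interaction, and up to 6 with the smallest adjusted p among those called lower after flg22. Other members named, among them WRKY4, 12, 23, 24, 33, 53, 70, 72 and 75, were chosen after their values were seen. Of 59 genes on the other lists 58 matched their names in RefSeq. Of 25 VQ genes 17 were left out because their names did not match, which left 8. No sequence is shown, because none was among the references used here.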

Additional observations from a re-analysis of the deposited data

Results flagged for a closer look

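WRKY6 in the primed leaves is listed here because its response to flg22 differed between the genotypes by the test of the difference itself. The rise was 2.38 ± 0.09 in WT and 1.05 ± 0.09 in rdd (log2 ± SE), and the difference of the rises was -1.32 (limma adjusted p = 0.027). The call rests on 2 libraries per group and was lost with the replicate block, 1 of 8 other settings (limma adjusted p = 0.09). It was also lost in most fits that left out 1 library, as given above. The libraries measured 101 and 95.8 FPKM after water and 534 and 496 after flg22 in WT, and 242 and 233 and 483 and 505 in rdd. The rdd libraries were higher than the WT libraries after water and lay within or below their range after flg22. In leaves at 24 h without hrcC, WRKY6 measured 9.29, 8.14 and 5.66 FPKM after water and 20.9, 17.6 and 38.7 after flg22 in WT, and 8.75, 7.36 and 9.27 and 19.4, 17.9 and 26.9 in rdd, and its interaction there was -0.34 ± 0.40 (adjusted p = 1). The cause was not tested.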

How the results depend on the processing

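No member called in a comparison changed direction there under any alternative. Among values not called, within replicates 1 and 2 the leaf interaction of WRKY6 went from -0.34 to 0.06, and the WT leaf differences of WRKY28 and WRKY65 from 0.04 to -0.55 and from 0.18 to -0.07. Of the values of single members under the alternatives, 4033 kept their side of the threshold and 375 did not, and of the counts 592 stayed within 1.5 times and 109 did not. The count of members lower in WT seedlings at 1 h was 0 with a filter at 3 FPKM or with median-ratio scaling, and that at 3 h was 0 with the filter at 3 FPKM. The count lower in rdd at 1 h was 0 with no filter, with the replicate block or with plain variances. In rdd at 3 h the count higher was 9 from the compared groups only, and the count lower was 2 with no filter and 0 with the filter at 3 FPKM or the compared groups only. The count higher in rdd from 1 h to 3 h was 0 from the compared groups only. Between genotypes at 3 h, 0 were called with a pseudocount of 0.1, the compared groups only or the replicate block, and 2 with the filter at 3 FPKM, median-ratio scaling or plain variances. In WT leaves the count lower was 0 from the compared groups only and 2 with the replicate block or within replicates 1 and 2. In rdd leaves the count higher was 31 with the replicate block and 29 within replicates 1 and 2, and the count lower was 1 within replicates 1 and 2. With the replicate block 1 member was called between genotypes after flg22 in leaves. In primed leaves 1 member was called between genotypes after flg22 with a pseudocount of 0.1. The interaction in primed leaves gave 2 with no filter, median-ratio scaling or plain variances, and 0 with the replicate block. Except where values over all genes are given with a fit, changes of these counts and of the left-out counts are not read as changes of the family alone. The cause of these changes was not tested.

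With each library left out in turn, the count lower ranged from 0 to 2 in WT at 1 h, 0 to 1 in WT at 3 h, 0 to 2 in rdd at 1 h and 0 to 2 in rdd at 3 h. From 1 h to 3 h the count higher ranged from 3 to 11 in WT and from 0 to 1 in rdd, where the count lower ranged from 6 to 13. Between genotypes at 3 h it ranged from 0 to 15. In leaves the count lower in WT ranged from 0 to 1 and the count higher in rdd from 11 to 19. In primed leaves the count lower ranged from 2 to 6 in WT and 2 to 5 in rdd, the genotype counts from 1 to 4 after water and 0 to 3 after flg22, and the interaction from 0 to 1. Same-numbered libraries correlated at -0.27 to 0.33 (median 0) in seedlings, where 5 of 18 were closest to their own number. In the priming set they correlated at -0.1 to 0.11 (median -0.08), and 6 of 8 were closest to their own number. With correlations this low the numbers were not taken as a pairing in these 2 sets, and the block values stand above only.

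Median-ratio scaling moved the median of all genes from 0.13 to -0.01 for WT 3 h against 1 h, from 0.11 to 0 between genotypes at 1 h, from -0.14 to -0.03 at 3 h, from -0.20 to -0.02 for the 3 h interaction, and from 0.10 to -0.01 and 0.18 to 0 for WT and rdd leaves. All genes called higher and lower went from 2255 and 1279 to 1737 and 1965 for WT 3 h against 1 h, from 1519 and 1517 to 1933 and 1153 for rdd 3 h against 0 h, from 2689 and 1508 to 2021 and 1920 in WT leaves, and from 2319 and 675 to 1123 and 1019 in rdd leaves. Members near 0 FPKM, untreated seedlings at 1 and 3 h, the 2 libraries per priming group and the unknown depth limit what these comparisons show.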
